A study of Mus musculus with 4 samples.

Results

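Dividing neutrophil precursors were followed in single-cell RNA of mouse bone marrow from 4 genotypes. These cells already transcribe the S100 and secondary granule genes of the neutrophil line and still divide. A cell was taken as a member when S100a8 and S100a9 together made up at least 5% of its UMIs, when Camp, Ngp and Ltf together made up at least 1%, and when Mki67, Top2a, Cdk1 and Birc5 together gave at least 4 UMIs. A UMI (unique molecular identifier) marks 1 captured mRNA molecule. The rule was applied to barcodes with 500 to 4000 detected genes and at most 15% of UMIs from mitochondrial genes (symbols that begin with mt-). It found 2907 members among 31457 cells kept, with 864 in DKO, 612 in TWT, 686 in IL-6 KO and 745 in TKO. Because 9 genes chose the members, the levels of these genes are given below as a description only.

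Each genotype gave 1 library, made from red-cell-depleted marrow of femur and tibia from C57/B6 mice labelled as 12 months old. TWT (triple wild type) carried IL6+/+, mDia1+/+ and miR146a+/+, and IL-6 KO carried IL6-/- with both other loci wild type. DKO carried mDia1-/- and miR146a-/- with IL6+/+, and TKO carried all 3 deletions. The knockouts were constitutive, so every cell of the animal carried them. The number of mice behind a library was not given in the sources used here. Since every genotype is a single library, genotypes were compared without a test. Intervals beside shares are exact binomial (Clopper-Pearson) and those beside sums of UMIs exact Poisson, at 95%, and they cover counting error only.

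Neutrophils arise in marrow from granulocyte-monocyte progenitors. Dividing promyelocytes first load primary (azurophil) granules with myeloperoxidase and serine proteases such as elastase. Myelocytes then load secondary granules with lactoferrin (Ltf), the cathelicidin precursor Camp, Ngp and lipocalin-2 under the transcription factor C/EBP-epsilon, and division stops soon after. The next stages, metamyelocyte to mature neutrophil, no longer divide. The study asked how loss of IL-6 alters the disease of DKO mice, in which the formin mDia1 and the microRNA miR-146a, a brake on Toll-like receptor signaling, are both absent.

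The libraries held 8423 to 10866 barcodes and 61292684 to 85145074 UMIs. Members had median UMIs of 15888 in TWT, 15324 in IL-6 KO, 16329 in TKO and 16150 in DKO, and median detected genes of 3012 in TWT, 2932 in IL-6 KO, 3036 in TKO and 2836 in DKO. The libraries shared 19 to 36 barcodes pairwise, and at most 1 member barcode. Diaph1, the gene of mDia1 (ENSMUSG00000024456, chromosome 18, 37843601 to 37935476, minus strand; GRCm38 coordinates of GENCODE M21 here and below), had 119 CPM (112 to 126) in TWT, 116 (109.8 to 123) in IL-6 KO, 6.68 (5.30 to 8.30) in TKO and 5.60 (4.43 to 6.99) in DKO in members, where CPM is UMIs per 1000000 UMIs summed over the members of a library. It was thus low in both libraries labelled as its knockout. Il6 gave 38 UMIs in members of IL-6 KO, 32 in TKO and 0 in TWT and DKO, so that its UMIs lay in the libraries labelled as its knockout. A 3′ assay can count RNA of an allele whose coding part is disrupted, so these counts do not check the IL-6 labels, and IL-6 KO and TKO stand below for the libraries labelled so. The IL-6 KO library also differed in sex, since Xist, which coats the inactive X of female cells, gave 7032 UMIs in its members and 1, 1 and 0 in those of TWT, DKO and TKO.

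Members had the profile of cycling myelocyte-stage cells on genes the rule did not use. Cebpe, which encodes C/EBP-epsilon (ENSMUSG00000052435, chromosome 14, 54710360 to 54712174, minus strand), had 698 CPM in TWT, 827 in IL-6 KO, 888 in TKO and 874 in DKO, against 357 CPM in TWT granule-positive cells with fewer than 4 cell cycle UMIs and 2.44 in TWT lymphocytes. Fcnb, a ficolin of neutrophil precursors, had 1295 CPM in TWT, 1166 in IL-6 KO, 1285 in TKO and 779 in DKO. Both genes were far above the lymphocyte level in every library. A list of S phase genes summed to 2788 CPM in TWT, 2765 in IL-6 KO, 3021 in TKO and 2818 in DKO in members. In the non-dividing granule-positive cells the same list summed to 287 CPM in TWT and 329.7 in DKO. Granulocyte-monocyte progenitors, defined by at least 0.5% of UMIs from Mpo, Elane, Prtn3 and Ctsg with less than 1% from Camp, Ngp and Ltf, held 16245 CPM of Elane in TWT, against 2448 in members and 42.0 in the non-dividing cells. Elane is among the genes that chose the progenitors, so its high level there was largely set in advance. The members held more of it than the non-dividing cells.

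By the UMI rule the members took nearly the same share of the marrow in all 4 libraries. Members made up 9.01% (8.34 to 9.71) in TWT, 9.18% (8.53 to 9.85) in IL-6 KO, 9.85% (9.19 to 10.6) in TKO and 8.98% (8.41 to 9.56) in DKO of the cells kept. Of the cells that met both granule parts of the rule, 26.3% (24.6 to 28.2) in TWT, 25.9% (24.2 to 27.6) in IL-6 KO, 28.0% (26.3 to 29.7) in TKO and 25.9% (24.4 to 27.4) in DKO also met its cell cycle part. TKO was highest on both measures, and its interval overlapped that of each other library on both. The share of granule-positive cells was itself alike, from 34.2% in TWT to 35.4% in IL-6 KO.

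The agreement of the 4 shares depended on how division was counted. When a cell needed 8 UMIs of the 4 cell cycle genes, the dividing share of granule-positive cells was 23.5% in TWT, 23.1% in IL-6 KO, 25.9% in TKO and 20.5% in DKO. When each cell was first thinned to 3000 UMIs, which left out 1649 to 2420 shallower cells per library, the share with 4 or more was 17.6% in TWT, 18.5% in IL-6 KO, 20.1% in TKO and 11.7% in DKO. DKO was lowest under both, and its interval in the thinned cells, 10.6 to 12.9%, lay below those of the other 3 libraries. With a minimum of 2 UMIs the 4 shares were between 28.6% and 30.1%. The granule-positive cells below the cell cycle limit were deepest in DKO, with a median of 8311 UMIs against 6744 to 6840 in the other libraries. The part of depth in these shares was not tested. The genotype and the library cannot be told apart here.

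**Figure D1:**
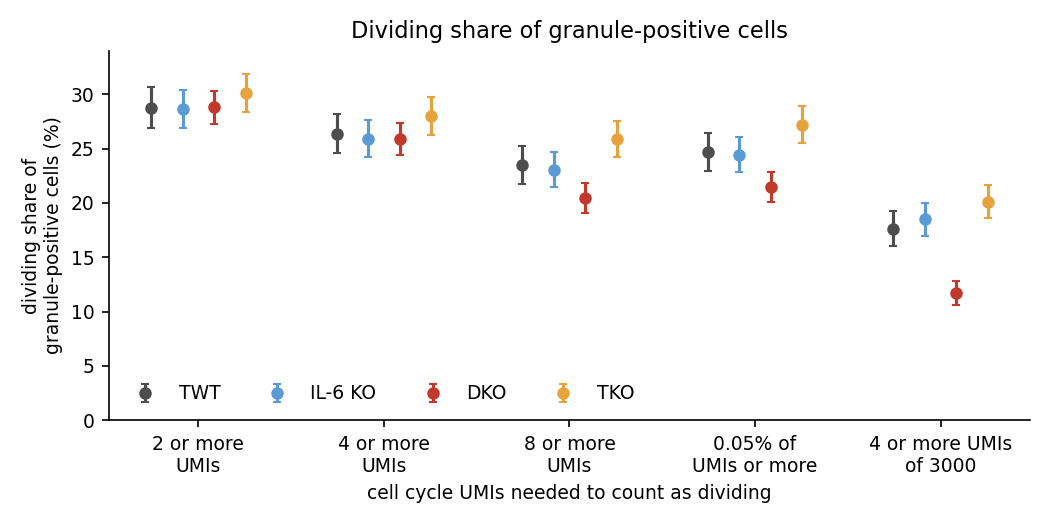
Dividing share of granule-positive cells (%) in the 4 libraries (points, with exact 95% binomial intervals that cover counting error only) for 5 ways of counting cell cycle UMIs (x axis). At 4 or more UMIs the libraries lie between 25.9% and 28.0%, and after thinning each cell to 3000 UMIs DKO lies at 11.7% while the others lie between 17.6% and 20.1%.

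Members of DKO carried fewer cell cycle UMIs per cell at the same depth. The 4 genes counted here chose the members, so their levels are a description only. The median sum of UMIs of the 4 genes was 28 in TWT, 31 in IL-6 KO, 31 in TKO and 17 in DKO. Among members of 12000 to 20000 UMIs this median was 30 in TWT, 33 in IL-6 KO, 32 in TKO and 19 in DKO. A share of 1.27% (0.637 to 2.27) of DKO members reached 48 such UMIs, against 10.9% to 12.1% in the other libraries. The difference lay in 2 of the 4 genes. Mki67, which encodes the proliferation antigen Ki-67 on mitotic chromosomes, had 656 CPM (640.0 to 672) in TWT, 691 (676 to 708) in IL-6 KO, 650.4 (636 to 665) in TKO and 285 (276 to 294) in DKO. Top2a, the topoisomerase that untangles replicated DNA, had 539 CPM in TWT, 611 in IL-6 KO, 531 in TKO and 329 in DKO. Both were lowest in DKO and close together in the other 3 libraries. Cdk1, the kinase that drives entry into mitosis, had 207 CPM in TWT, 226 in IL-6 KO, 243 in TKO and 216 in DKO, and Birc5, a part of the chromosomal passenger complex, had 355 CPM in TWT, 384 in IL-6 KO, 394 in TKO and 357 in DKO, with no such gap. Mki67 also stood lower in another class of dividing cells of DKO, itself chosen by the same 4 genes. In dividing monocytic cells (4 or more cell cycle and 3 or more monocyte marker UMIs, with less than 1% of UMIs from Camp, Ngp and Ltf and less than 0.5% from Mpo, Elane, Prtn3 and Ctsg), Mki67 had 956 CPM in TWT and 333 in DKO, and Birc5 570.4 and 515.

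**Figure D2:**
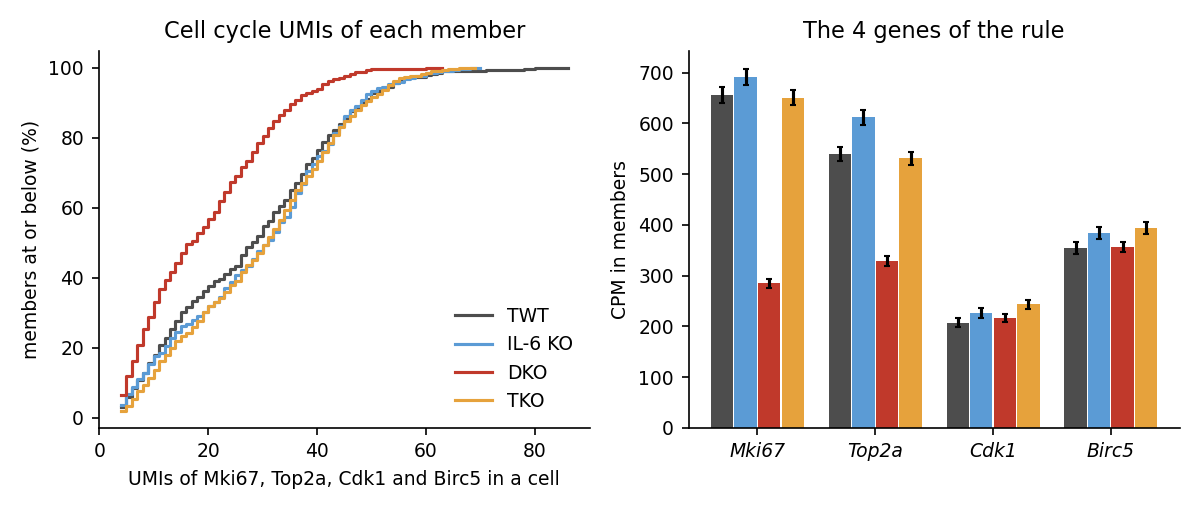
Left, the share of members (%, y axis) with at most the number of UMIs of Mki67, Top2a, Cdk1 and Birc5 on the x axis, 1 line per library. Right, CPM of each of these genes in the members (bars, with exact 95% Poisson intervals that cover counting error only). The DKO line lies above the others, with a median of 17 UMIs against 28 to 31, and Mki67 and Top2a are lowest in DKO while Cdk1 and Birc5 differ little. The rule used these genes to choose the members.

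Few cells lay at the granule and S100 limits of the rule, but the cell cycle limit cut through the DKO cells. Members under 8 cell cycle UMIs made up 10.8% in TWT, 10.9% in IL-6 KO, 7.52% in TKO and 20.8% in DKO. At the cell cycle limit, 18 TWT, 24 IL-6 KO, 56 DKO and 15 TKO members had exactly 4 UMIs, and 20, 27, 41 and 20 cells that met the rest of the rule had 3. Members with a secondary granule share of 1 to 1.5% numbered 6 to 8 per library, and 4 to 8 cells lay just below, at 0.5 to 1%. At most 1 member per library had an S100 share of 5 to 6%, and at most 4 cells lay at 4 to 5%.

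The members spanned the step from primary to secondary granules. The median secondary granule share, in percent of UMIs, was 10.6 in TWT, 10.3 in IL-6 KO, 11.1 in TKO and 10.7 in DKO, and the 10th to 90th percentiles ran from 6.65 to 12.8 in TWT and from 6.25 to 13.7 in DKO. Members that still held at least 1% of their UMIs in Mpo, Elane, Prtn3 and Ctsg made up 12.6% (10.1 to 15.5) in TWT, 13.1% (10.7 to 15.9) in IL-6 KO, 16% (13.4 to 18.8) in TKO and 13.9% (11.7 to 16.4) in DKO. These earlier cells had fewer secondary granule UMIs, with a median share of 5.29% in TWT and 6.06% in DKO. DKO held more cells in between. Members with a primary granule share of 0.1 to 1% made up 12.8% (10.2 to 15.7) in TWT, 12.2% (9.89 to 14.9) in IL-6 KO, 12.8% (10.4 to 15.4) in TKO and 22.3% (19.6 to 25.3) in DKO. The median S100 share, in percent of UMIs, was 30.1 in TWT, 29.9 in IL-6 KO, 28.1 in TKO and 24.7 in DKO, lowest in DKO. S100a8 had the larger gap, at 136874 CPM in TWT, 134696 in IL-6 KO, 117214 in TKO and 91531 in DKO, while S100a9, its partner in calprotectin, had 145810 CPM in TWT, 149949 in IL-6 KO, 145829 in TKO and 142531 in DKO.

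Across genes, DKO members differed from TWT members far more than TKO or IL-6 KO members did. A gene counted as measured where 1 of the compared libraries reached 50 CPM and the pair gave 30 UMIs or more, and called when the 2 libraries were at least 2-fold apart. DKO with TWT had 60 genes higher and 131 lower among 2271 measured, that is 8.41% called (2.64% higher and 5.77% lower). DKO with TKO had 37 higher and 45 lower among 2164 (3.79%; 1.71% higher and 2.08% lower). TKO with TWT had 3 higher and 6 lower among 2152 (0.418%; 0.139% higher and 0.279% lower), and IL-6 KO with TWT had 2 higher and 5 lower among 2141 (0.327%; 0.0934% higher and 0.234% lower). These comparisons share the TWT and DKO libraries. In DKO, 34 genes were at least 2-fold higher and 49 at least 2-fold lower than in each of the other 3 libraries. When the genes above 1% of the members' UMIs were left out of the total, the DKO with TWT split became 67 higher and 337 lower among 3513 measured, with the median log2 ratio of all measured genes at -0.14 instead of 0.03.

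Free RNA in droplets bears on these counts. B and T lymphocytes of the same library (3 or more UMIs of their markers, under 5% of UMIs from S100a8 and S100a9, fewer than 4 cell cycle UMIs), with median depths of 2712 UMIs in TWT and 3445 in DKO, were therefore set beside the members, as mean UMIs per cell. Of the 60 genes higher in DKO than in TWT, 42 had at least 2-fold more UMIs per cell in DKO members than in DKO lymphocytes, and 11 had no more than the lymphocytes. Of the 131 lower genes, 111 were at least 2-fold above the TWT lymphocytes in TWT members. Lymphocytes can also make such RNA themselves, so their level is not a measure of free RNA alone.

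Of all gene lists, the stefin genes had the highest median ratio of DKO to TWT over those measured. These genes encode small cytosolic inhibitors of cysteine cathepsins and lie in a cluster on chromosome 16, and in marrow they are known from maturing neutrophils. Of 10 stefin and cystatin genes listed, 6 were measured. Of these, 5 rose in DKO over TWT by 2-fold or more and none was lower. The median log2 ratio of the 6 was 3.56, against 0.03 over all measured genes. The 5 genes that rose were below the CPM minimum for a measured gene in TWT and were measured only because DKO reached it. Such a gene can only be higher in DKO, so the count and the median follow in part from the minimum. Stfa1 (ENSMUSG00000071562, chromosome 16, 36276951 to 36285373, plus strand) had 16.6 CPM (14.2 to 19.4) in TWT, 50.7 (46.4 to 55.2) in IL-6 KO, 29.8 (26.9 to 33.1) in TKO and 334 (324 to 344) in DKO, which put DKO 20.1-fold (17.2 to 23.6) above TWT. BC100530 (ENSMUSG00000071561, chromosome 16, 36359382 to 36367748, minus strand) had 5.95 CPM in TWT, 21.1 in IL-6 KO, 4.53 in TKO and 285 in DKO. Both were highest in DKO, and IL-6 KO was next for both. Stfa2l1 had 20.7 CPM in TWT, 9.67 in IL-6 KO, 4.70 in TKO and 164 in DKO, and Stfa2 had 2.16 CPM in TWT, 0.958 in IL-6 KO, 1.90 in TKO and 56.5 in DKO. Gm5483, the closest call of the 5 at 2.19-fold (1.93 to 2.49), had 32.8 CPM in TWT, 7.85 in IL-6 KO, 1.57 in TKO and 71.6 in DKO. TKO members were below the TWT level for 4 of these 5 genes, and for Stfa1 they had less than IL-6 KO. The exons of this family are alike, so how reads were split between its members is uncertain. The whole list, measured or not, summed to 517 CPM in TWT, 546 in IL-6 KO, 491 in TKO and 1578 in DKO.

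Stfa1 had 5.38 UMIs per cell in DKO members and 0.0449 in DKO lymphocytes, and after each cell was thinned to 2000 UMIs it was seen in 17.3% of DKO members and 1.08% of DKO lymphocytes. The non-dividing granule-positive cells held more of it in each library, 73.7 CPM in TWT, 65.1 in IL-6 KO, 40.5 in TKO and 493 in DKO. Granulocyte-monocyte progenitors held 1.69 CPM in DKO. Within DKO members, Stfa1 was 98.8 CPM in cells with a primary granule share of 1% or more and 403 in those under 0.1%, against 9.99 and 17.2 in TWT. DKO was thus higher at both stages.

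The bases upstream of 2 of the stefin genes are shown because these genes rose together. They come from RefSeq (GRCm38.p6), end where the gene starts in GENCODE, and run 5′ to 3′ on the gene's strand. The RefSeq window of Stfa2 reached past that start and was cut there, which left 156 bases. Stfa2l1 is at chr16:36156561-36156810 (plus strand, 250 bases) and Stfa2 at chr16:36408458-36408613 (minus strand, 156 bases).
Stfa2l1: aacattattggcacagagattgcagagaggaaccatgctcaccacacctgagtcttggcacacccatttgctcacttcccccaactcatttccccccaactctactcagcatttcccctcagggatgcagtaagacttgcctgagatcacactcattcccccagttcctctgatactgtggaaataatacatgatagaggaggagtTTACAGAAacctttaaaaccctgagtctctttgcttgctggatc
Stfa2: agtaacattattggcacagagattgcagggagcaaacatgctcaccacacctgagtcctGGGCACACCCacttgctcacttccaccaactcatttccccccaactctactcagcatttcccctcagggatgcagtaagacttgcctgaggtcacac
Capitals mark matches, on either strand, to letters used for 3 groups of factors, TTNNGNAA or its complement TTNCNNAA for C/EBP, TTCNNNGAA for STAT, and GGG and CC with any 5 bases between them, or its complement, for NF-kB. Stfa2l1 held 1 C/EBP match, 37 to 44 bases before the start, and Stfa2 held 1 NF-kB match. The windows differ in length, so the 2 genes cannot be compared for the matches they lack. Such matches are common, since 36.8% of all 32851 promoter windows of 250 bases held the C/EBP letters and 28.8% of those of 156 bases held the NF-kB letters. Set against each other without gaps, the 2 windows had 106 of 152 bases in common.

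Of 28 acute phase and inflammation genes, 14 were measured, 7 were higher in DKO members than in TWT and none was lower, with a median log2 ratio of 1.01. Among the 7, Saa3, Cd14 and Sod2 were below the CPM minimum in TWT and were measured only through DKO, so they could only be higher there. Saa3 had no more UMIs per cell in DKO members than in DKO lymphocytes. Orm1, which encodes the acute phase protein orosomucoid, had 199 CPM in TWT, 223 in IL-6 KO, 230.2 in TKO and 528 in DKO, 2.66-fold (2.53 to 2.80) higher in DKO than in TWT. Hp, the haemoglobin-binding haptoglobin, had 1532 CPM in TWT, 1600 in IL-6 KO, 1947 in TKO and 3130 in DKO. Lgals3, which encodes galectin-3, had 209 CPM in TWT, 189 in IL-6 KO, 239 in TKO and 763 in DKO, and Sod2, the mitochondrial superoxide dismutase, had 32.0 CPM in TWT, 35.7 in IL-6 KO, 41.2 in TKO and 111 in DKO. In each case DKO stood apart and the other 3 libraries lay close together. Lcn2, the siderophore binder lipocalin-2, had 11924 CPM in TWT, 12913 in IL-6 KO, 14930 in TKO and 18769 in DKO, and Chil3, a chitinase-like protein, had 7485 CPM in TWT, 10190 in IL-6 KO, 8498 in TKO and 13372 in DKO. Neither reached 2-fold. Cd14, the lipopolysaccharide co-receptor, had 1.13 CPM in TWT, 1.15 in IL-6 KO, 5.94 in TKO and 57.7 in DKO, and TKO lay between DKO and the other libraries. It had 0.929 UMIs per cell in DKO members and 0.269 in DKO lymphocytes.

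S100a6 and other genes of late neutrophil stages were higher in DKO while the cells still divided. S100a6, a calcium-binding protein, had 543 CPM (528 to 557) in TWT, 389 (377 to 401) in IL-6 KO, 395 (384 to 407) in TKO and 2902 (2874 to 2930) in DKO. It had 46.8 UMIs per cell in DKO members against 11.7 in DKO lymphocytes. Its level in non-dividing granule-positive cells was 5768 CPM in TWT, 4642 in IL-6 KO, 5559 in TKO and 12321 in DKO. Asprv1, a retroviral-like protease, had 5.34 CPM in TWT, 7.38 in IL-6 KO, 5.28 in TKO and 65.7 in DKO in members, and Il1r2, the decoy receptor for interleukin-1, had 19.5 CPM in TWT, 16.5 in IL-6 KO, 21.3 in TKO and 62.4 in DKO. All 3 were higher in the non-dividing than in the dividing cells of every library. Of 20 genes of mature neutrophils, 10 were measured in DKO with TWT, 2 were higher (Il1r2 and the interferon-inducible Ifitm2) and 2 were lower. Csf3r, the receptor of G-CSF, had 81.5 CPM in TWT, 92.1 in IL-6 KO, 68.9 in TKO and 36.4 in DKO, lowest in DKO. The list thus moved in both directions, with a median log2 ratio of 0.02.

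**Figure D3:**
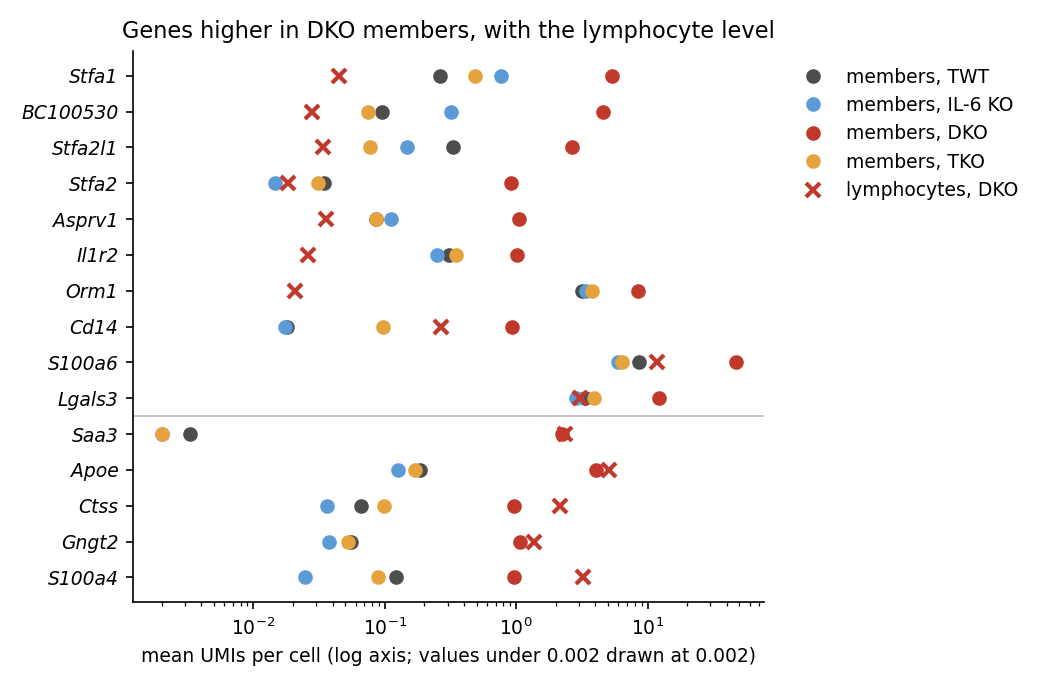
Mean UMIs per cell (log axis) of genes called higher in DKO than in TWT members, with members of the 4 libraries as dots and DKO lymphocytes as crosses. For the 10 genes above the line DKO members exceed DKO lymphocytes, as for Stfa1 at 5.38 against 0.0449, and for the 5 genes below it they do not, as for Saa3 at 2.22 against 2.33.

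Some of the highest ratios belonged to genes at or below the level in DKO lymphocytes. Saa3, an acute phase serum amyloid, had 2 UMIs in all TWT members and 138 CPM in DKO members. DKO lymphocytes had as much, with 2.33 UMIs per cell against 2.22 in members. Apoe, a lipid carrier of macrophages, had 0.186 UMIs per cell in TWT members and 4.03 in DKO members, against 5.11 in DKO lymphocytes. Ctss, Gngt2 and S100a4 likewise had 0.964, 1.07 and 0.963 UMIs per cell in DKO members and 2.16, 1.38 and 3.25 in DKO lymphocytes. Free RNA, RNA made by the lymphocytes themselves and expression by the members cannot be told apart for these 5 genes. The lymphocyte barcodes of DKO also held more monocyte marker UMIs, with a mean of 4.15 per cell. This mean was 1.41 in TWT, 1.58 in IL-6 KO and 1.41 in TKO.

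Markers of monocytes rose in DKO members too. All 8 monocyte markers (Csf1r, Ccr2, F13a1, Ms4a6c, Fn1, Klf4, Ly86 and Cx3cr1) were raised 2-fold or more in DKO over TWT members, though none reached 50 CPM, and they summed to 20.5 CPM in TWT, 18.2 in IL-6 KO, 25.1 in TKO and 152 in DKO. Members with 5 or more UMIs of these markers made up 0.490% (0.101 to 1.43) in TWT, 0.146% (0.00369 to 0.810) in IL-6 KO, 0.805% (0.296 to 1.75) in TKO and 9.84% (7.93 to 12.0) in DKO. The 85 such cells of DKO had a median of 15 monocyte marker UMIs, 3600 detected genes and a secondary granule share of 8.45%, against 2769 genes and 11.1% in DKO members with fewer than 2. Whether these barcodes hold 1 cell or 2 was not tested in DKO, where the doublet caller marked 1 of 10866 barcodes and so did not work. In the other 3 libraries it called 8 of the 10 members of this kind doublets. Without all members that had 2 or more monocyte marker UMIs, DKO with TWT had 46 genes higher, all among the 60, and 163 lower. The 5 stefin calls stood, with a median log2 ratio of 3.60 over the list, and 6 of 13 acute phase genes were higher. Saa3 differed between these cells and the rest, at 61.9 CPM in DKO members with fewer than 2 monocyte marker UMIs and 676 CPM in the 85.

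Other cell types left different traces. Macrophage markers summed to 122 CPM in TWT, 122 in IL-6 KO, 99.2 in TKO and 366 in DKO, most of it Apoe in DKO. Erythroid markers went the other way, at 1526 CPM in TWT, 661 in IL-6 KO, 1281 in TKO and 25 in DKO. Hbb-bs, an adult beta-globin gene, fell from 888 CPM in TWT to 14.6 in DKO, with 14.1 UMIs per cell in TWT members and 9.92 in TWT lymphocytes. B cell markers were between 19.3 and 41.2 CPM and T cell markers between 2.68 and 18.8, and basophil and eosinophil markers summed to 86.8 CPM in TWT, 58.6 in IL-6 KO, 7.17 in TKO and 2.80 in DKO. Their part in the gene calls was not tested. The immunoglobulin genes Igkc, Ighm and Iglc1 were also among the lowest ratios of DKO to TWT, and TWT lymphocytes held 575 UMIs of Igkc per cell against 2.84 in TWT members.

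Of 18 secondary granule genes, 16 were measured, 2 were higher in DKO than in TWT (Orm1 and Hp) and none was lower, with a median log2 ratio of 0.40 over the 13 that the rule did not use. The list without the rule genes, measured or not, summed to 31996 CPM in TWT, 35447 in IL-6 KO, 36890 in TKO and 48549 in DKO. Fcnb and Olfm4 had log2 ratios of -0.73 and -0.80, and Cd177 had -0.22. Of the rule genes, Camp had 63857 CPM in TWT, 61489 in IL-6 KO, 64779 in TKO and 60786 in DKO, and Ngp had 30644 CPM in TWT, 32269 in IL-6 KO, 33902 in TKO and 37927 in DKO. Ltf had 5415 CPM in TWT, 5260 in IL-6 KO, 6011 in TKO and 4225 in DKO, with DKO lowest for Camp and Ltf and highest for Ngp. Of 16 primary granule genes, 13 were measured. Mpo, the myeloperoxidase gene, was lower in DKO, at 676 CPM in TWT, 625 in IL-6 KO, 547 in TKO and 290.3 in DKO, and Serpinb1a, an inhibitor of the neutrophil proteases, was higher, at 858 CPM in TWT, 789 in IL-6 KO, 931 in TKO and 1758 in DKO. The neighbouring proteases did not follow Mpo. Elane had 2448 CPM in TWT, 2323 in IL-6 KO, 2829 in TKO and 2381 in DKO, and Prtn3, proteinase 3, had 1839 CPM in TWT, 1891 in IL-6 KO, 2489 in TKO and 2205 in DKO. The lower level of Mpo was also present in granulocyte-monocyte progenitors, with 7266 CPM in TWT, 6718 in IL-6 KO, 5368 in TKO and 3570 in DKO. None of the 8 measured tertiary granule genes was called, among them Mmp9 at -0.30 and Itgam, the CD11b integrin chain, at -0.93 on the log2 scale.

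Of 24 granulocyte transcription factors, 11 were measured, 3 were higher in DKO members (Cebpb, Junb and Jund) and 1 lower (Runx1). With the members that had 2 or more monocyte marker UMIs left out, 1 of 11 was higher (Jund) and 1 lower. Cebpb, the C/EBP factor of emergency granulopoiesis, had 219.5 CPM in TWT, 252 in IL-6 KO, 259 in TKO and 482 in DKO, 2.19-fold (2.09 to 2.31) higher in DKO than in TWT. Without those members it was 217 CPM in TWT and 381 in DKO, and the call was lost. Jund had 37.1 CPM in TWT, 25.8 in IL-6 KO, 36.4 in TKO and 119 in DKO, but DKO lymphocytes held more of it per cell (3.20 UMIs) than DKO members (1.92). Runx1, a factor of myeloid commitment, had 62.3 CPM in TWT, 62.4 in IL-6 KO, 46.7 in TKO and 27.9 in DKO. The factors that set the granule program differed less, with log2 ratios of DKO to TWT of 0.32 for Cebpe, 0.22 for Cebpd and 0.77 for Spi1, which encodes PU.1. Gfi1, a repressor needed for neutrophil fate, was under the limit of 50 CPM at 42.5 CPM in TWT, 40.9 in IL-6 KO, 36.2 in TKO and 27.8 in DKO.

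G2/M genes had a median log2 ratio of DKO to TWT of -0.40, over the 40 measured that the rule did not use. Of those 40, 3 were lower in DKO (Ncapd2, Anln and G2e3) and none was higher, a share near the 5.77% of all measured genes that were lower. The whole list of 56 without the rule genes summed to 12016 CPM in TWT, 11949 in IL-6 KO, 11165 in TKO and 9678 in DKO. Ncapd2, a condensin subunit, had 88.8 CPM in TWT, 83.7 in IL-6 KO, 73.0 in TKO and 32.3 in DKO, and Anln, the cytokinesis scaffold anillin, had 71.8 CPM in TWT, 73.6 in IL-6 KO, 60.7 in TKO and 27.7 in DKO. Both were lowest in DKO with TKO next. Of 45 S phase genes 23 were measured, 1 was lower (Uhrf1, which keeps DNA methylation through replication) and the median was -0.17. Among cyclins, kinases and inhibitors Cdk6, the G1 kinase, fell from 62.2 to 22.1 CPM and Rbl1 from 52.9 to 24.1, 2 of 11 measured. Of 19 measured histone genes Hist1h1b and H1f0 were higher and Hist1h2ap lower. H1f0, a linker histone linked to the end of division, had 25.3 CPM in TWT, 7.85 in IL-6 KO, 26.1 in TKO and 77.2 in DKO. The members were chosen by mitotic genes, so these medians describe cells selected for such RNA in every library.

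Genes lower in DKO members were more often long genes. The 186 measured genes that span more than 100 kb from start to end had a median log2 ratio of DKO to TWT of -0.69, with 40 lower (21.5%) and none higher, whereas the 551 genes of 3 to 10 kb had a median of 0.22 with 9 lower (1.63%) and 23 higher (4.17%). Between these, the medians were 0.12 for 10 to 30 kb and -0.27 for 30 to 100 kb. DKO with TKO had the same order, from 0.12 at 3 to 10 kb to -0.50 above 100 kb. For TKO with TWT the medians ran from 0.10 to -0.14, and for IL-6 KO with TWT from -0.02 to 0.00. Among G2/M genes that the rule did not use, the 10 of up to 10 kb had a median of 0.02, the 13 of 10 to 30 kb had -0.45 and the 17 of more than 30 kb had -0.79. Megf9 and Fryl, lower in DKO than in each other library, had 115 and 59.0 CPM in TWT and 35.6 and 18.0 CPM in DKO. Gm26917, a noncoding RNA, had 123 CPM in TWT, 140.2 in IL-6 KO, 90.9 in TKO and 37.1 in DKO. When genes over 30 kb were left out, 46 genes were lower in DKO than in TWT and 50 higher. Gene length moved with the result, and its part in it was not tested.

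**Figure D4:**
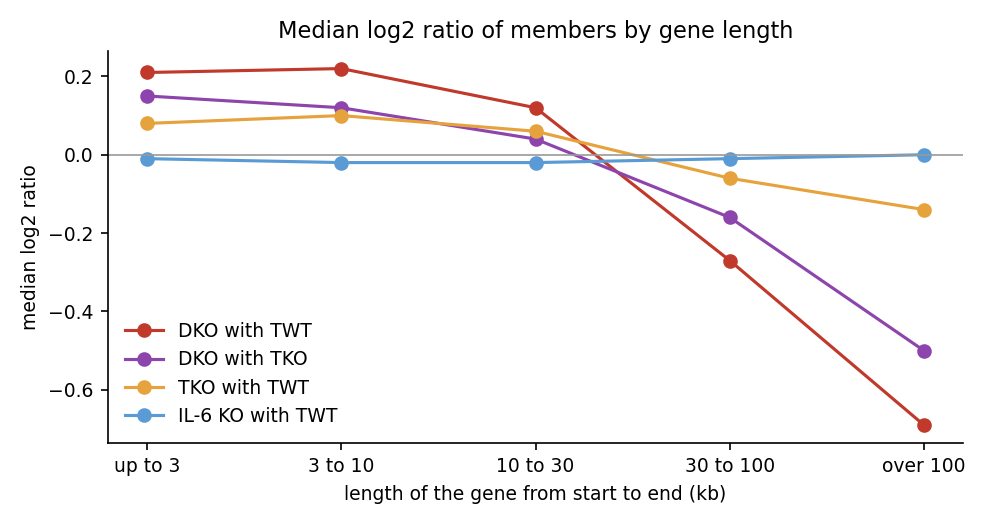
Median log2 ratio between members of 2 libraries (y axis) of the measured genes in 5 classes of gene length from start to end (x axis, kb), 1 line per comparison. DKO with TWT falls from 0.21 in the shortest class to -0.69 in the longest, DKO with TKO falls to -0.50, and IL-6 KO with TWT stays within 0.02 of 0.

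Genes of the deleted pathways were sparse in members. Of 15 targets of miR-146a listed, 3 were measured in DKO with TWT and none was higher. The mature microRNA is shown because its loss defines DKO and TKO (RefSeq, 22 bases, with the seed of bases 2 to 8 in capitals).
miR-146a-5p: uGAGAACUgaauuccauggguu
The assay does not count this RNA. Its target Cxcr4, the receptor that holds precursors in marrow, had 129 CPM in TWT, 124 in IL-6 KO, 125 in TKO and 45.9 in DKO, lowest in DKO and alike in the other 3, TKO included. Irak1, another target and a kinase below Toll-like receptors, had a log2 ratio of -0.86. Of 5 measured genes of Toll-like receptors and NF-kB, Cd14 and Nfkbia, the inhibitor that NF-kB itself induces, were higher and none was 2-fold lower. The median log2 ratio of the 5 was -0.40, so the list moved in both directions. With the members that had 2 or more monocyte marker UMIs left out, 1 of 4 measured was higher. Nfkbia had 209 CPM in TWT, 182 in IL-6 KO, 243 in TKO and 469 in DKO, against 1.78 UMIs per cell in DKO lymphocytes and 7.55 in DKO members. Of 6 measured genes of IL-6 and STAT3 signaling, Pim1, a kinase that STAT3 induces, was higher (42.0 CPM in TWT, 44.8 in IL-6 KO, 55.8 in TKO and 103 in DKO) and Csf3r lower, while Stat3 had -0.68 on the log2 scale.

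Surface and structural genes gave single calls. Of 13 measured trafficking and adhesion genes none was higher, and Cxcr4 was lower (median log2 ratio -0.54). Of 15 measured myeloid receptors Il1r2 was higher and Csf3r lower. In the actin and formin list Vim and Tmsb10 were higher and Diaph1 lower of 22 measured, and the median was 0.10. Of 7 measured S100 genes S100a4 and S100a6 were higher, S100a4 at no more UMIs per cell than in DKO lymphocytes. No gene was called among 3 measured myeloid suppressor genes and 8 MHC class I genes, and no MHC class II gene was measured.

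Metabolic lists shifted without passing 2-fold for most members. The 80 measured cytosolic ribosomal protein genes had a median log2 ratio of DKO to TWT of 0.40, with 2 higher (Rplp0 and Rpl29) and none lower, and the 11 measured mitochondrial transcripts had -0.58, with 2 lower (mt-Nd3 and mt-Nd4l). The 46 nuclear genes of oxidative phosphorylation had a median of 0.07 and no call. mt-Nd3, a subunit of respiratory complex I, had 295 CPM in TWT, 245 in IL-6 KO, 197 in TKO and 104 in DKO, and its order was shared by lymphocytes, at 1105 CPM in TWT, 1021 in IL-6 KO, 795 in TKO and 579.5 in DKO. Of 18 measured glycolysis genes Ldha was higher and Hk3 lower, with a median of 0.29. The endoplasmic reticulum list had 1 of 16 lower (Canx), the nucleolus and growth list had none of 11 called, and the oxidant and iron list had 1 of 18 higher (Sod2). Of 6 measured dissociation stress genes, which can be induced while cells are prepared, 3 were higher (Jun, Junb and Hspa8). Hspa8 had 285 CPM in TWT, 559 in IL-6 KO, 508 in TKO and 607 in DKO, so that TWT stood apart from the other 3 libraries rather than DKO.

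TKO members differed from TWT members in 9 of 2152 measured genes. Lower in TKO were Diaph1, Hist1h2ap, Olfm4, Gm10076, Igkc and Iglc1, and higher were Pttg1, Tyms and Hist1h2ac. None of the measured acute phase, stefin, granulocyte transcription factor or G2/M genes was called in TKO with TWT (11, 1, 9 and 46 genes). In DKO with TKO, 5 of 14 acute phase genes and 5 of 6 stefin genes were higher in DKO, and 3 of 45 G2/M genes were lower. DKO enters both of the contrasts in which these genes were called. In DKO with TKO the 5 stefin genes, Cd14 and Sod2 were below the CPM minimum in TKO and were again measured only through DKO.

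Pttg1 and Hist1h2ap moved in both libraries without Diaph1. Pttg1, which encodes securin, the inhibitor that separase loses when sister chromatids part (ENSMUSG00000020415, chromosome 11, 43420250 to 43426251, minus strand), had 7.70 CPM (6.06 to 9.65) in TWT, 6.23 (4.81 to 7.94) in IL-6 KO, 156 (149 to 163) in TKO and 175 (168 to 182) in DKO. DKO and TKO were close together and far above the other libraries, 22.7-fold (18.0 to 28.9) and 20.2-fold (16 to 25.8) above TWT. It was the same in granulocyte-monocyte progenitors, at 22.6 CPM in TWT, 23.3 in IL-6 KO, 161 in TKO and 213 in DKO, and in dividing monocytic cells, at 38.0 CPM in TWT, 24.8 in IL-6 KO, 237 in TKO and 338 in DKO. After thinning to 2000 UMIs it was seen in 1.80% of TWT members and 29.6% of DKO members, against 7.73% and 10.6% of lymphocytes. Pttg1 lies 45789 bases from Mir146, the deleted microRNA gene (chromosome 11, 43374397 to 43374461, minus strand), and was the single gene within 500 kb of it that reached 50 CPM in members. Hist1h2ap, a replication-dependent histone H2A gene (ENSMUSG00000094777, chromosome 13, 21833026 to 21833507, minus strand), had 758 CPM in TWT, 763 in IL-6 KO, 237 in TKO and 227 in DKO. It belongs to a family of near-identical genes, so its counts are uncertain. Olfm4, olfactomedin-4 of a subset of neutrophil granules, had 215 CPM in TWT, 188 in IL-6 KO, 105 in TKO and 123 in DKO, and DKO missed the limit against TWT at a log2 ratio of -0.80. Tyms, the thymidylate synthase of S phase, had 104 CPM in TWT, 195 in IL-6 KO, 259 in TKO and 143 in DKO, which put both libraries labelled as lacking IL-6 above TWT and DKO.

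**Figure D5:**
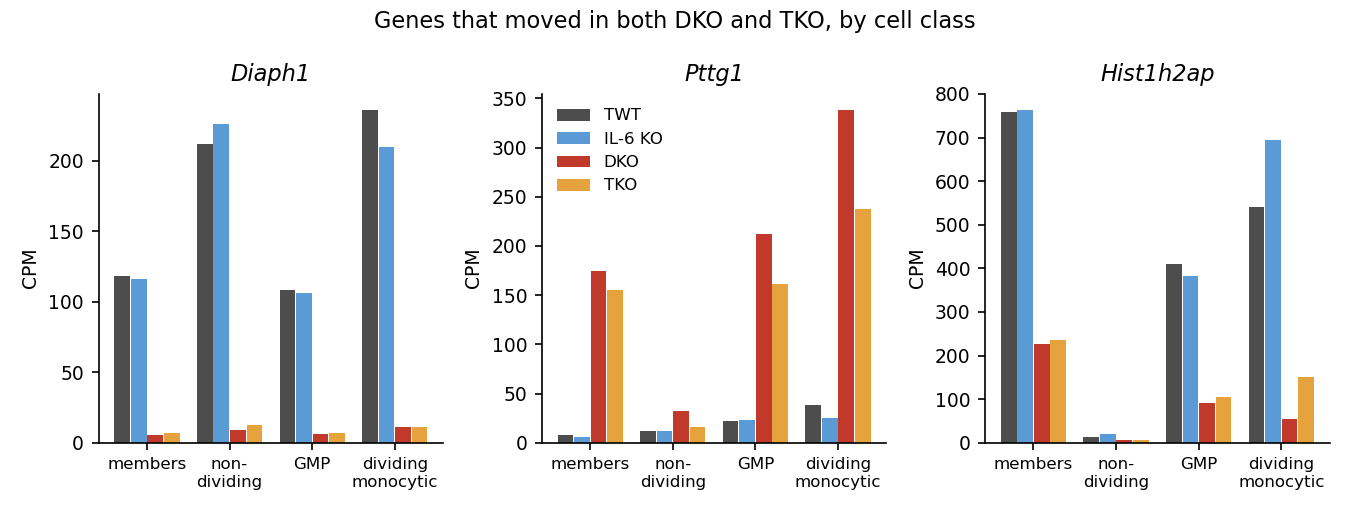
CPM (y axes) of Diaph1, Pttg1 and Hist1h2ap in members, non-dividing granule-positive cells, granulocyte-monocyte progenitors (GMP) and dividing monocytic cells (x axes), 1 bar per library with no error bars because each is 1 library. In members, Pttg1 is at 175 CPM in DKO and 156 in TKO against 7.70 and 6.23 in TWT and IL-6 KO, and Diaph1 and Hist1h2ap are low in the same 2 libraries.

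IL-6 KO members gave the fewest calls. Besides Xist, Stfa1 was higher than in TWT, by 3.05-fold (2.55 to 3.66). Cirbp, a cold-inducible RNA-binding protein, was lower, at 60.2 CPM in TWT, 20.2 in IL-6 KO, 32.9 in TKO and 100.1 in DKO, and it was below TWT in lymphocytes of the same library too (57.5 against 136 CPM). The other lower genes were Hbb-bs, Hba-a1, Hba-a2 and Iglc1. None of the 5 lower genes reached 2-fold the lymphocyte UMIs per cell in TWT members.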

How the data were processed

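Per the labels, red-cell-depleted marrow of 4 genotypes was run on the 10x Genomics 3′ v3 assay, and the authors deposited 1 matrix of raw UMI counts per library, made with Cell Ranger (3.0.2 in the matrix header) on mm10; Seurat 4 stands in the submitters' processing notes. The counts are raw and not normalized. From them, with Python 3.11.15, numpy 2.4.6, scipy 1.17.1 and pandas 2.3.3, UMIs were summed over the members of each library and given as CPM. Log2 ratios used a pseudocount of 1 CPM, and the interval of a fold is the exact conditional interval of the 2 counts.

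The sums held 9741847 to 13918460 UMIs per library. Intervals are at 95% and cover counting error only. Doublets were kept, because Scrublet (scanpy 1.11.5) marked 1 of 10866 DKO barcodes against 179 to 204 in the other libraries. The text names the rule genes, Diaph1, Il6, the 15 highest and 10 lowest ratios of DKO to TWT that also passed against TKO and IL-6 KO, the 5 highest and 5 lowest of the other comparisons, and up to 5 members per gene list. Xist was added as a label check. Some results are not reported here. Members, lists and markers were chosen with earlier results of these data known. Alternatives changed the member rule, depth, pseudocount, scaling, CPM minimum and doublets. The summing and calling steps were tested on simulated counts. Gene coordinates came from GENCODE M21 (GRCm38) and sequences from RefSeq (GRCm38.p6).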

Additional observations from a re-analysis of the deposited data

Results flagged for a closer look

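In members, 4 genes went in opposite directions in IL-6 KO against TWT and in TKO against DKO. The difference was not tested, because each genotype is 1 library. Hbb-bs was lower in IL-6 KO than in TWT (log2 ratio -1.39) and higher in TKO than in DKO (5.51). Hba-a1 gave -1.02 and 5.53, and Hba-a2 gave -1.02 and 5.72. These globin genes were present in lymphocytes of the same libraries, where Hbb-bs had 9.92 UMIs per cell in TWT, 8.20 in IL-6 KO, 7.14 in TKO and 3.64 in DKO. Stfa1 went the other way, higher in IL-6 KO than in TWT (1.55) and lower in TKO than in DKO (-3.44). It had 0.771 UMIs per cell in IL-6 KO members and 0.00530 in IL-6 KO lymphocytes.

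Barcodes with more than 4000 detected genes were not used in the comparisons, yet some of them met the rest of the member rule. Their number was 55 in TWT, 44 in IL-6 KO, 51 in TKO and 53 in DKO, or 8.51%, 10.4%, 8.67% and 19.3% of the barcodes above that limit. Whether they hold 1 cell or more was not tested.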

How the results depend on the processing

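No paired analysis was possible because each genotype is 1 library and the libraries carry no shared replicate numbers. Leaving out a library was not possible for the same reason. Shares depended on the cell cycle limit. The share of kept cells was 9.83% in TWT, 10.1% in IL-6 KO, 10.6% in TKO and 9.99% in DKO at 2 or more UMIs and 8.04% in TWT, 8.17% in IL-6 KO, 9.11% in TKO and 7.11% in DKO at 8 or more. The dividing share of granule-positive cells was 28.7% in TWT, 28.6% in IL-6 KO, 30.1% in TKO and 28.8% in DKO at 2 or more, 23.5% in TWT, 23.1% in IL-6 KO, 25.9% in TKO and 20.5% in DKO at 8 or more and 17.6% in TWT, 18.5% in IL-6 KO, 20.1% in TKO and 11.7% in DKO after thinning to 3000 UMIs. In DKO, thinning gave 4.79% of kept cells, and a limit of 0.05% of UMIs gave 7.44% of kept and 21.4% of granule-positive cells. With Camp, Ngp and Ltf at 5% or more, the share of kept cells was 8.49% in TWT, 8.49% in IL-6 KO, 9.17% in TKO and 8.39% in DKO, and the dividing share was 31.8% in TWT, 30.6% in IL-6 KO, 31.8% in TKO and 31.6% in DKO.

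Counts of called genes moved with the CPM minimum. Without it, DKO with TWT had 312 genes higher and 685 lower, DKO with TKO 303 and 271, TKO with TWT 18 and 52, and IL-6 KO with TWT 21 and 35. With a minimum of 200 CPM these counts were 27 and 16, 10 and 5, 1 and 2, and 1 and 2. Scaling to CPM without the genes above 1% of UMIs gave 337 lower in DKO with TWT, 58 higher and 111 lower in DKO with TKO, 12 lower in TKO with TWT and 8 lower in IL-6 KO with TWT. A pseudocount of 10 CPM left 64 genes lower in DKO with TWT, 19 in DKO with TKO and 2 in IL-6 KO with TWT. The mean of each cell's CPM left 1 gene higher in IL-6 KO with TWT. A further 3 alternatives were chosen after seeing the data. Without genes that span over 30 kb, 46 genes were lower in DKO with TWT and 19 in DKO with TKO. Without haemoglobin and immunoglobulin genes 1 was lower in IL-6 KO with TWT, and without the 5% highest Scrublet scores 1 was higher there. Removal of Scrublet calls was not run for DKO. Among the named genes, Igkc reversed to -3.73 and Iglc1 to 4.50 (log2, IL-6 KO with TWT) with no upper limit on detected genes. Of the other values of named genes in DKO with TWT, 1543 kept their side of 2-fold, 30 fell below it and 22 passed it. Direction was compared only where a value reached 2-fold. The causes of these shifts were not tested.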

Other observations

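Klf2, a Kruppel-like factor known from quiescent lymphocytes and endothelium, stood outside the gene lists and was among the highest ratios of DKO members to TWT members, with 72.1 CPM in TWT, 59.7 in IL-6 KO, 91.6 in TKO and 318 in DKO. It had 5.13 UMIs per cell in DKO members and 3.87 in DKO lymphocytes, and in TWT 1.15 and 2.30. Jun, an AP-1 subunit, had 7.70 CPM in TWT, 5.75 in IL-6 KO, 22.3 in TKO and 84.0 in DKO, so that TKO lay between DKO and the other libraries. In non-dividing granule-positive cells Jun had 9.23 CPM in TWT, 10.8 in IL-6 KO, 18.3 in TKO and 161 in DKO and Klf2 had 233 CPM in TWT, 207 in IL-6 KO, 345 in TKO and 826 in DKO. DKO was highest for both genes in both classes of cells.

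Gm10076, a gene model of a ribosomal protein pseudogene, went with the 2 libraries that lack Diaph1, at 142 CPM in TWT, 155 in IL-6 KO, 60.2 in TKO and 74.7 in DKO in members. In lymphocytes it had 334 CPM in TWT, 344 in IL-6 KO, 131 in TKO and 168 in DKO, in the same order of libraries by pairs. Reads of such a model can come from its parent gene, so its counts are uncertain.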
